A study of Mus musculus with 24 samples.

Results

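A set of 10 genes around glucose breakdown and lactate export was followed in mouse macrophages in 3 activation states and 2 genotypes. They are the rows of the raw count table whose symbol is Hk3, Pfkp, Aldoa, Tpi1, Gapdh, Pgk1, Pkm, Ldha, Slc16a3 or Unc5a, 10 of 24557 genes. The first 8 encode glycolytic enzymes and lactate dehydrogenase, and Slc16a3 encodes a lactate exporter. Unc5a is no glycolysis gene and was included because its last exon overlaps that of Hk3 on the opposite strand. Bone marrow-derived macrophages (BMDMs) of WT littermates and of mice labelled Ltb4r2-/- were sequenced, with 4 libraries for each genotype and state and 24 in all. Ltb4r2 encodes BLT2, a leukotriene receptor, which these mice lack in all tissues according to the study. All cells were grown for 7 days in medium with 10 ng/ml of the growth factor M-CSF. M0 cells had no further stimulus. M1-like cells then had LPS (10 ng/ml) together with IFN-γ (25 ng/ml) for 16 h, and M2-like cells had IL-4 (10 ng/ml), also for 16 h. Age and sex of the mice are not given in the labels.

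Glycolysis turns glucose into pyruvate in a chain of cytosolic steps that yields ATP and NADH. When pyruvate is reduced to lactate, NAD+ is regained and the chain can continue, and lactate leaves the cell through monocarboxylate carriers. Macrophages given LPS and IFN-γ are known for a high rate of glycolysis in the presence of oxygen, whereas IL-4 treated macrophages are known for oxidative metabolism. The transcription factor HIF-1 is a known activator of many genes of the chain.

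The libraries held 427825 to 729580 counts, and the 10 genes together took 0.0507% to 0.191% of a library. Gapdh, which is among the most abundant mRNAs of most cells, had only 7 to 75 counts per library, and Actb, which encodes β-actin, had 30 to 133. The labels give a strand-specific kit, whereas the counting's strand setting is not given in the sources used here. Genes whose exons overlap a gene on the opposite strand (GENCODE M21) were 24.1% of the 24004 genes placed on the genome and held 90.3% of the placed counts. Without the strand setting, reads of a gene and of its opposite neighbour cannot be told apart, and which strand the reads of a row came from was not tested, so each value below is that of a row of the count table. Ltb4r2 itself had 0 counts in the 12 WT libraries and 14 in all in 5 of the libraries labelled Ltb4r2-/-, with at most 5 in one, so its counts do not check the labels. Of 15 macrophage markers, 8 to 11 had a mean of 10 counts or more in each group, and no marker on the lists for neutrophils, lymphocytes, mast cells and stroma did. Of 8 erythroid markers 1 did, in Ltb4r2-/- M0 alone.

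In mm10, Ldha and Aldoa lie on chromosome 7 (46841475 to 46855627, plus strand, and 126795234 to 126809108, minus strand). Tpi1 and Gapdh are near each other on the minus strand of chromosome 6 (124810586 to 124814296 and 125161715 to 125166467). Hk3 and Unc5a overlap at their ends on chromosome 13 (55005985 to 55021385, minus strand, and 54949411 to 55006018, plus strand), and Pfkp lies on the minus strand of the same chromosome (6579768 to 6648777). Pgk1 is on chromosome X (106187100 to 106203699, plus strand), Pkm on chromosome 9 (59656368 to 59679375, plus strand) and Slc16a3 on chromosome 11 (120948480 to 120960868, plus strand). All 10 are protein coding.

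The promoter windows below run from 250 bases before to 50 after a start in RefSeq (GRCm38.p6). They are shown because the members differ in the letters ACGTG, a form of the core of the element that HIF-1 binds. GCGTG, another form of that core, was not searched for and is not marked, though the windows of Pfkp and Ldha hold it. Capitals mark ACGTG on either strand, which reads CACGT when it lies on the other strand, and CACGTG holds both readings. The windows are Ldha chr7:46845554-46845853, plus strand, with 5 readings, Pgk1 chrX:106186850-106187149, plus strand, with 2, Slc16a3 chr11:120948817-120949116, plus strand, with 2, and Pfkp chr13:6648722-6649021, minus strand, with 0.
Ldha: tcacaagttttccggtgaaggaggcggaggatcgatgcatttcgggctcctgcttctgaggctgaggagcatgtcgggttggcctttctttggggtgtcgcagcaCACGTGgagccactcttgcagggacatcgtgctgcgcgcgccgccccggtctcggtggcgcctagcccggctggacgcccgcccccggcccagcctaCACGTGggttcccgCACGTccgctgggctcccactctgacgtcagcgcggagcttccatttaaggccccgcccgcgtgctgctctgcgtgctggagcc
Pgk1: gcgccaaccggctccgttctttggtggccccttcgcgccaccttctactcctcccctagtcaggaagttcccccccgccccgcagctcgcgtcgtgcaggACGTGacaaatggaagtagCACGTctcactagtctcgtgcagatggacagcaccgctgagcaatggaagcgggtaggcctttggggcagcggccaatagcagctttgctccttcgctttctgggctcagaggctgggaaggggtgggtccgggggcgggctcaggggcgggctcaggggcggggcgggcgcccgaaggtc
Slc16a3: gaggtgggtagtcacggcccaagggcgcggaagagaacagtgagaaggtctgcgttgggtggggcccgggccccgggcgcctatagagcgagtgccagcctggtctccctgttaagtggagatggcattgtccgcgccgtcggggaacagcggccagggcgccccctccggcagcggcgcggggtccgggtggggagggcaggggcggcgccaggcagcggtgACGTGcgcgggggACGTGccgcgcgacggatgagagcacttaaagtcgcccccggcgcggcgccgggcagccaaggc
Pfkp: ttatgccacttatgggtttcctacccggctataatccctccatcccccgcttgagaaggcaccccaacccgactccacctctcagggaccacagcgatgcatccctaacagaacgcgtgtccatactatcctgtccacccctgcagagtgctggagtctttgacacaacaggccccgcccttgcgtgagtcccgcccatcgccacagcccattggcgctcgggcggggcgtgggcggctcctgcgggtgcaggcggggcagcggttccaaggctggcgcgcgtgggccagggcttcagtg
Of all 32851 such windows, 19.6% held at least 1 reading, 8.21% at least 2 and 0.183% at least 5. The 10 genes had 14 windows, of which 8 held at least 1 reading. Aldoa had 1 reading in 2 of its 3 windows, Pkm 2 in 1 of its 2, and Hk3 and Gapdh 1 in their only one. The other window of Ldha (chr7:46846832-46847131, plus strand) held 0. No window of Pfkp, Tpi1 or Unc5a held these letters. A match describes the sequence and is not a measured binding site.

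In WT mice, 9 of the 10 genes had higher scaled read counts in M1-like than in M0 macrophages, and Pfkp had lower ones. Every difference passed the test of edgeR, and the same genes moved the same way in the libraries labelled Ltb4r2-/-. Pkm rose 6.50-fold, Gapdh 5.46-fold, Ldha 9.46-fold and Slc16a3 1.88-fold in WT, whereas Pfkp was 1.75-fold lower. Levels are CPM, each library's counts scaled to the same sum over the tested genes with TMM factors, which equalize the bulk of the genes between libraries. Of all 3047 genes tested, 26.9% rose and 24.3% fell in WT, and 27.1% rose and 25.7% fell in Ltb4r2-/- (edgeR's quasi-likelihood test, Benjamini-Hochberg adjusted p under 0.05). Hk3, Pgk1 and Ldha reached the count minimum of the test in 0 of 8 M0 libraries and in 7, 7 and 8 of 8 M1 libraries, so they were tested because they were high in M1. In WT, M1 and M0 libraries did not overlap for 9 higher genes and 1 lower gene, as against 24.6% and 21.8% of all genes. In Ltb4r2-/- they did not overlap for 8 higher and 1 lower, as against 24.4% and 23.8%, and Slc16a3 was the gene that overlapped. In bulk RNA, fewer cells that express a gene and less RNA per cell cannot be told apart.

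**Figure D1:**
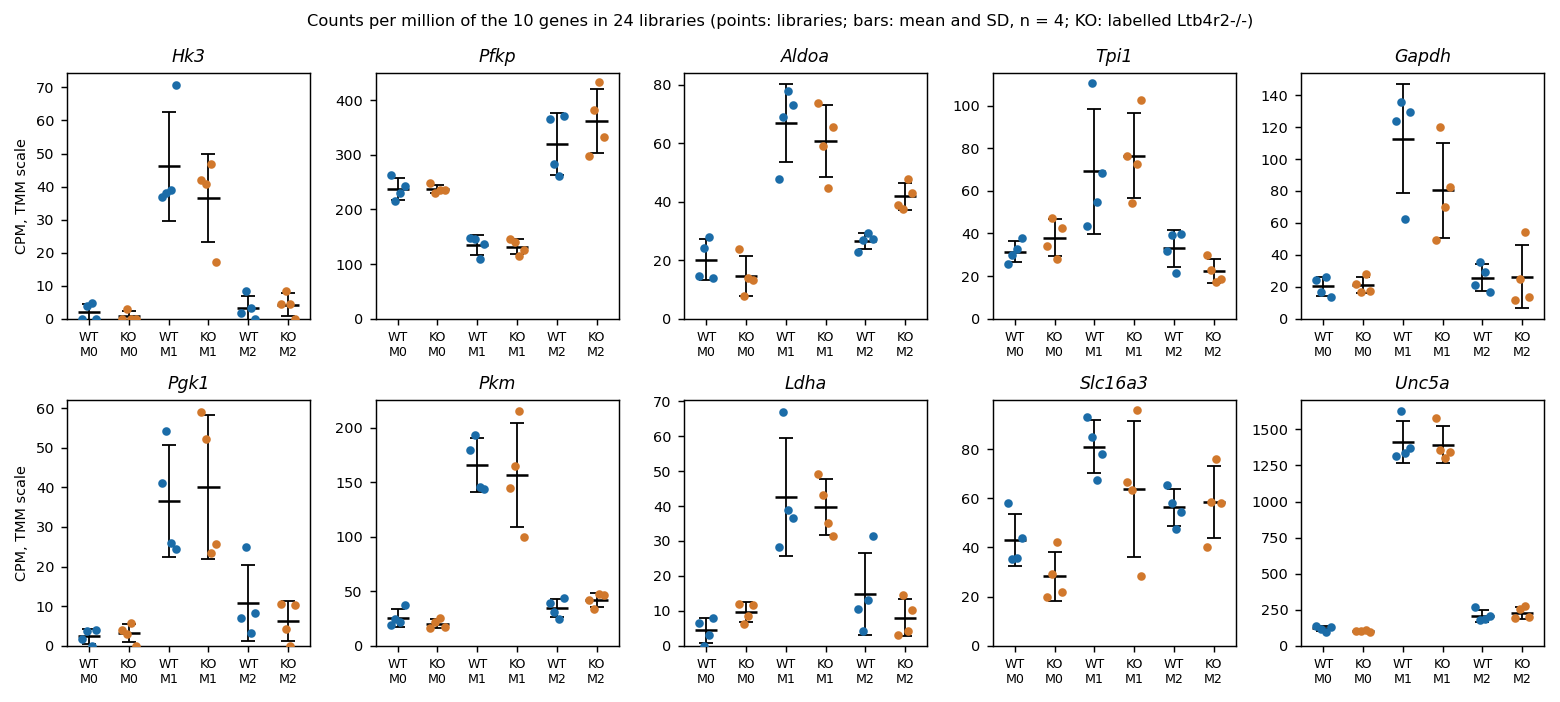
CPM on the TMM scale (vertical axis, from 0, a separate scale for each gene) of the 10 genes in the 24 libraries, with points for libraries and bars for the mean and SD of the 4 libraries of a group. Within a genotype, the M1 points lie above the M0 points in each panel but that of Pfkp, where they lie below, and of Slc16a3 in the libraries labelled KO (Ltb4r2-/-), where they overlap.

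Hexokinase 3, encoded by Hk3, traps glucose in the cell by phosphorylation, and is a hexokinase found in myeloid cells. It had 0, 2, 3 and 0 counts in the 4 WT M0 libraries and 17, 21, 15 and 29 in WT M1. In Ltb4r2-/- it had 0, 2, 0 and 0 counts in M0 and 17, 18, 20 and 6 in M1. The M0 libraries were thus at or near 0 in both genotypes, and the M1 libraries lay apart from them. The ratio of the scaled sums, 82 counts to 5, was 20.9 in WT (95% interval for counting error 8.62 to 66.2). In Ltb4r2-/-, with 61 counts to 2, it was 47.8 (12.7 to 404). The log2 fold change was 4.27 ± 0.74 in WT (standard error, adjusted p = 9.55e-06 from edgeR) and 5.18 ± 0.84 in Ltb4r2-/- (adjusted p = 3.48e-06). The latter became 7.24 without Ltb4r2-/- M0 replicate 2, which held both counts of its group, but a fitted value against libraries that are all at 0 depends on the prior count and is no bound.

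Pfkp encodes the platelet-type phosphofructokinase, an enzyme of the step that commits sugar to glycolysis. It had 163, 116, 148 and 122 counts in WT M0 and 68, 81, 42 and 56 in WT M1. Its Ltb4r2-/- counts were 124, 151, 167 and 161 for M0 and 59, 62, 49 and 44 in M1. Each M1 library was below each M0 library. The mean was 237 ± 19.7 CPM in WT M0 and 135 ± 17.9 in WT M1 (SD, n = 4), a log2 fold change of -0.81 ± 0.15 (adjusted p = 3.01e-05 from edgeR). In Ltb4r2-/- the change was -0.85 ± 0.15 (adjusted p = 1.49e-05). Per kilobase of exon, Pfkp had the highest level of the glycolytic members in WT M0, 17.7 ± 1.47 CPM per kb. It had the lowest in WT M1, 10.1 ± 1.34, where its value was within 1 SD of that of Hk3 (12.5 ± 4.46). The length is that of all annotated exons merged, 13.4 kb for Pfkp and 4.13 kb for Gapdh, so ranks between genes depend on the annotation. By CPM alone, Pfkp in WT M1 was below only Pkm among the glycolytic members (135 against 166).

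The middle of the chain rose. Aldolase A (Aldoa) splits the sugar into trioses, and its counts went from 9, 13, 18 and 7 in WT M0 to 22, 38, 30 and 30 in WT M1, a log2 fold change of 1.71 ± 0.32 (adjusted p = 3.41e-05 from edgeR). In Ltb4r2-/- the counts were 12, 5, 10 and 9 in M0 and 30, 26, 19 and 23 in M1 (2.06 ± 0.34, adjusted p = 3.67e-06). Triosephosphate isomerase (Tpi1) interconverts the trioses and had 16, 16, 21 and 19 counts in WT M0 and 20, 61, 21 and 28 in WT M1. Its M1 values lay above M0 after scaling, but 1 library stood well above the others of its group. The log2 fold change of Tpi1 was 1.15 ± 0.31 in WT (adjusted p = 0.00231 from edgeR) and fell to 0.77 (adjusted p = 0.0539) without WT M1 replicate 2, so its call in WT rested on that library. In Ltb4r2-/-, Tpi1 had 17, 31, 20 and 29 counts in M0 and 31, 24, 31 and 36 in M1 (1.00 ± 0.30, adjusted p = 0.00629).

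Gapdh oxidizes the triose and makes NADH. It had 15, 9, 17 and 7 counts in WT M0 and 57, 75, 24 and 53 in WT M1, a log2 fold change of 2.45 ± 0.38 (adjusted p = 1.47e-06 from edgeR). Ltb4r2-/- libraries had 11, 11, 20 and 12 counts in M0 and 20, 53, 30 and 29 in M1 (1.92 ± 0.38, adjusted p = 6.38e-05). Phosphoglycerate kinase, encoded by Pgk1, makes ATP in the chain. Pgk1 had 1, 2, 0 and 2 counts in WT M0 and 19, 30, 10 and 10 in WT M1. The ratio of its scaled sums was 17.6 (95% interval for counting error 7.20 to 56.0) in WT and 12.9 (6.20 to 31.2) in Ltb4r2-/-, where 8 counts in M0 stood against 66 in M1. The fitted log2 fold changes were 3.93 ± 0.74 (adjusted p = 3.50e-05 from edgeR) and 3.58 ± 0.69 (adjusted p = 4.37e-05).

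Pyruvate kinase, encoded by Pkm, makes pyruvate and ATP in the last step. It had 12, 13, 14 and 19 counts in WT M0 and 83, 107, 56 and 59 in WT M1. The Ltb4r2-/- counts were 8, 14, 18 and 12 in M0 and 59, 73, 92 and 35 in M1. The lowest M1 library of each genotype was well above the highest M0 library. The mean rose from 25.7 ± 8.22 to 166 ± 25.0 CPM in WT (SD, n = 4) and from 20.1 ± 4.16 to 157 ± 47.9 CPM in Ltb4r2-/-. The log2 fold changes were 2.70 ± 0.26 (adjusted p = 1.39e-10 from edgeR) and 2.94 ± 0.27 (adjusted p = 2.93e-11). Per kilobase of exon, merged as for Pfkp, Pkm had the highest mean of the glycolytic members in M1, 33.1 ± 5.0 CPM per kb in WT. Gapdh followed at 27.3 ± 8.22 and Tpi1 at 25.1 ± 10.7. These 3 neighbours did not differ beyond their spread.

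Ldha encodes the lactate dehydrogenase subunit that favours lactate, and its promoter window held the most ACGTG readings of those printed. It had 4, 0, 2 and 4 counts in WT M0 and 13, 37, 15 and 15 in WT M1. In the Ltb4r2-/- libraries the counts were 6, 4, 6 and 8 in M0 and 20, 19, 15 and 11 in M1. The groups did not overlap in either genotype. The log2 fold change was 3.24 ± 0.59 in WT (adjusted p = 1.97e-05 from edgeR) and 2.04 ± 0.53 in Ltb4r2-/- (adjusted p = 0.00140). Slc16a3 encodes the carrier MCT4, which exports lactate from strongly glycolytic cells. It had 36, 19, 23 and 22 counts in WT M0 and 43, 47, 26 and 32 in WT M1 (43.1 ± 10.6 against 81.0 ± 10.9 CPM, SD, n = 4). Its log2 fold change was 0.91 ± 0.29 (adjusted p = 0.00995 from edgeR), the smallest of the rises in WT. In Ltb4r2-/- it had 10, 19, 30 and 15 counts in M0 and 27, 28, 41 and 10 in M1, so that 1 M1 library lay within the M0 range. The change there was 1.16 ± 0.31 (adjusted p = 0.00205).

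Markers of cell types were measured beside these changes. The summed level of the 15 macrophage markers was 1767 to 2286 CPM in WT M0 and 796 to 1311 in WT M1. It was 1634 to 2108 CPM in Ltb4r2-/- M0 and 667 to 897 in Ltb4r2-/- M1. The sum was lower in each M1 library than in each M0 library of its genotype. The number of these markers with a mean of 10 counts or more was 8 in WT M0 and 11 in WT M1. In Ltb4r2-/- it was 8 in M0 and 9 in M1, so the lower sum does not stand for each marker. Of 8 dendritic cell markers, 1 had a mean of 10 counts or more in either M1 group and 5 or 6 were at 0 in every library of the group. Their summed level was 491 to 832 CPM in WT M1 and 681 to 1085 CPM in Ltb4r2-/- M1, against 31.6 to 53.6 and 64.6 to 106 CPM in M0. The part of either in the changes of the glycolysis genes was not tested.

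Scaling mattered for the smaller changes. TMM factors were 0.726 to 0.842 in M1 libraries and 1.10 to 1.24 in M0 and M2. A single gene, AV051173, took 12.1% to 16.3% of the counts of an M1 library and 0.677% to 1.30% of an M0 library. When libraries were scaled by total count alone, the median of all genes moved to -0.64 in WT and -0.60 in Ltb4r2-/- on the log2 scale, from -0.02 and -0.00. Of the 10 genes, 7 then still rose and 1 fell in WT, against 15.6% and 44.6% of all genes, and likewise 7 and 1 in Ltb4r2-/-, against 16.6% and 45.0%. Tpi1 no longer passed (0.54, adjusted p = 0.143 in WT, and 0.39, adjusted p = 0.279 in Ltb4r2-/-, edgeR). Nor did Slc16a3 (0.29, adjusted p = 0.402, and 0.58, adjusted p = 0.111). Pkm had 2.08, Ldha 2.64, Gapdh 1.83 and Pfkp -1.43 in WT under this scaling.

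**Figure D2:**
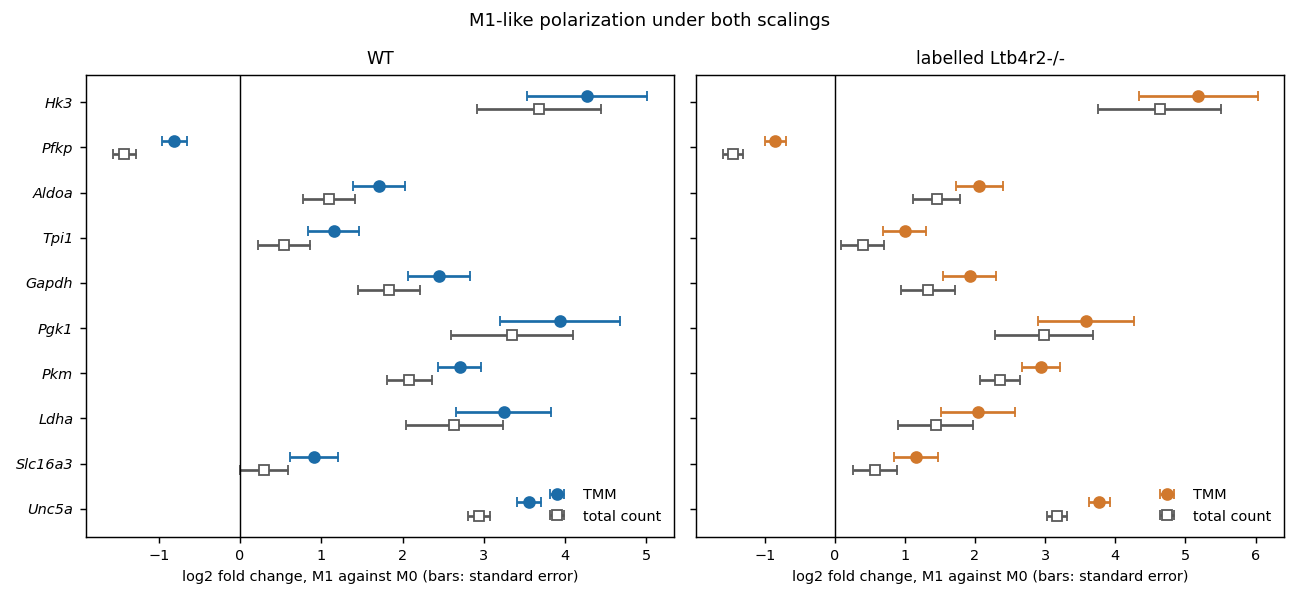
Log2 fold change from M0 to M1 (horizontal axis) of the 10 genes in WT (left) and in the libraries labelled Ltb4r2-/- (right), with filled points for TMM scaling, open squares for total-count scaling and bars for the standard error. Every gene lies lower under total counts, and Slc16a3 and Tpi1 come close to 0, for example 0.29 and 0.54 in WT.

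A ratio of 2 genes within a library does not depend on the scaling. The ratio of each of the other 9 genes to Pfkp was higher in each M1 than in each M0 library, in both genotypes. For Slc16a3, Tpi1, Aldoa, Gapdh, Pkm and Unc5a, which had counts in every library, the rise of the ratio ran from 3.32-fold (Slc16a3 in WT) to 24.4-fold (Unc5a in Ltb4r2-/-). It was 11.3-fold for Pkm and 9.34-fold for Gapdh in WT. For Ldha in Ltb4r2-/-, which had counts in every M0 library, the rise was 7.24-fold. Hk3 and Pgk1 in both genotypes and Ldha in WT had M0 libraries at 0. There the size of the rise depends on the 0.5 added to each count, and no fold is given. Pfkp was chosen as the reference with its fall known, and the comparisons share its counts, so the ratios restate that pattern without the scaling and are given as a description with no test. They show unequal change of the genes and not which of them changed.

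Hk3 and Unc5a share 34 bp of exon on opposite strands. Unc5a encodes a receptor for netrin, a guidance cue of growing axons, and had 6324 counts in the 24 libraries against 166 for Hk3. It had 85, 62, 62 and 67 counts in WT M0, 607, 898, 515 and 561 in WT M1 and 153, 86, 114 and 97 in WT M2. In Ltb4r2-/- it had 52, 66, 76 and 66 counts in M0, 642, 598, 557 and 470 in M1 and 127, 122, 125 and 116 in M2. The M1 libraries thus stood far above the others. The mean was 120.2 ± 18.5 CPM in WT M0 and 1412 ± 144 in WT M1 (SD, n = 4), a log2 fold change of 3.56 ± 0.15 (adjusted p = 3.79e-20 from edgeR). In Ltb4r2-/- it was 102 ± 4.25 and 1395 ± 125 CPM (3.77 ± 0.15, adjusted p = 7.79e-21). The ratio of Unc5a to Hk3 was compared between states in 6 tests, and none passed, with adjusted p of 0.60 to 0.83 by the exact two-sided permutation test (n = 4 against 4). The ratio differed by 1.14-fold to 2.22-fold between states, libraries of the compared groups overlapped in each test, and the few counts of Hk3 set a wide error, so these tests do not show that the ratio was level. Whether the reads under Unc5a came from the Unc5a or the Hk3 strand was not tested.

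Other members also have an opposite neighbour. Exons of Pfkp share 748 bp with Pitrm1, which encodes a mitochondrial peptidase, those of Gapdh 68 bp with Iffo1, those of Tpi1 34 bp with Spsb2 and those of Aldoa 25 bp with Fam57b. For Ldha, Pgk1, Pkm and Slc16a3 the annotation has none. Over the 24 libraries Pfkp had 3070 counts and Pitrm1 173, Gapdh 551 and Iffo1 127, and Tpi1 540 and Spsb2 275, whereas Fam57b had 0. From M0 to M1, where Pfkp fell, Pitrm1 had a log2 fold change of 3.49 ± 0.81 (adjusted p = 5.21e-04 from edgeR) in WT and 1.54 ± 0.68 (adjusted p = 0.0558) in Ltb4r2-/-. From M0 to M2, where Pfkp rose, Pitrm1 was at 3.25 ± 0.82 (adjusted p = 0.00279) and 1.58 ± 0.66 (adjusted p = 0.0659). Spsb2, which encodes an adaptor of a ubiquitin ligase, rose by 2.91 ± 0.56 (adjusted p = 4.92e-05) and 3.69 ± 0.56 (adjusted p = 1.06e-06). Both reached the count minimum in 0 of 8 M0 libraries, Spsb2 in 8 of 8 M1 and 2 of 8 M2 and Pitrm1 in 2 of 8 M1 and 5 of 8 M2, so each was tested because it was above M0 elsewhere. Aldoa, Gapdh, Pgk1, Pkm, Ldha and Tpi1 have near-identical copies elsewhere in the genome, and how the counting treated reads that fit several places is not given in the sources used here.

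**Figure D3:**
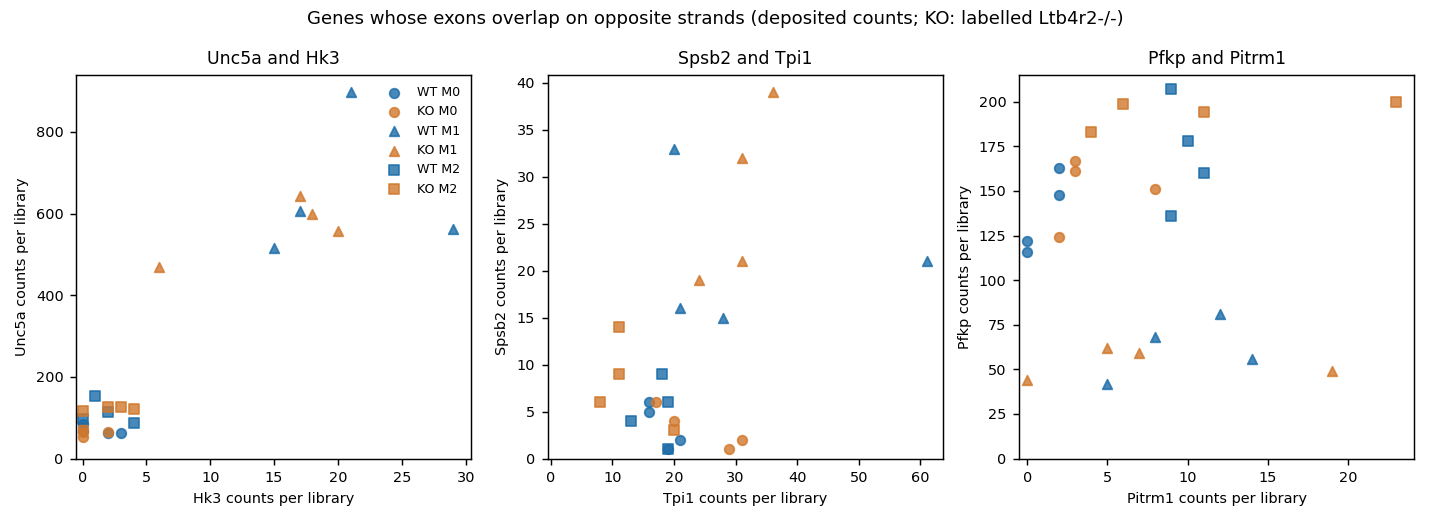
Deposited counts per library of 3 pairs of genes whose exons overlap on opposite strands, one gene on each axis, with 1 point per library, shape for the state and colour for the genotype. Unc5a spans 470 to 898 counts in M1 and 52 to 153 elsewhere while Hk3 spans 6 to 29 and 0 to 4, whereas Pfkp is lowest in M1, where Pitrm1 has 0 to 19 counts.

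IL-4 moved fewer of the 10 genes than LPS with IFN-γ did, and fewer of all 3047 genes too. In M2 against M0, 824 of all genes passed in WT and 974 in Ltb4r2-/- (edgeR), beside 1560 and 1610 in M1 against M0. In WT, 3 of the 10 were higher in M2 than in M0, as against 15.2% of all genes. In Ltb4r2-/- 5 of the 10 were higher, as against 16.9%. None of the 10 was lower in either genotype, as against 361 (WT) and 458 (Ltb4r2-/-) of all 3047 genes. M2 and M0 libraries did not overlap for 1 gene in WT (14.2% of all genes) and for 4 in Ltb4r2-/- (16.8%). These comparisons use the same M0 libraries as those of M1. The summed macrophage markers were at 688 to 1087 CPM in WT M2 and 803 to 901 in Ltb4r2-/- M2, below the M0 libraries, and the summed dendritic cell markers at 103 to 172 and 126 to 178 CPM, above them, and their part in the changes was not tested. Pfkp, lower in M1, was higher in M2, with 207, 136, 160 and 178 counts in WT M2 and 200, 183, 199 and 194 in Ltb4r2-/- M2. Its log2 fold change was 0.43 ± 0.14 in WT (adjusted p = 0.0203 from edgeR) and 0.60 ± 0.14 in Ltb4r2-/- (adjusted p = 8.29e-04). In WT the M2 and M0 libraries of Pfkp overlapped (lowest M2 at 261 CPM, highest M0 at 262). The call in WT was lost without WT M0 replicate 2 or 3 or WT M2 replicate 1 or 4, where the change was 0.37, 0.41, 0.35 and 0.31. It was also lost with DESeq2 (adjusted p = 0.0521) and in edgeR without a filter on low counts (adjusted p = 0.297). Unc5a rose by 0.80 ± 0.15 in WT (adjusted p = 7.79e-05 from edgeR) and by 1.15 ± 0.15 in Ltb4r2-/- (adjusted p = 1.49e-07), beside 3.56 and 3.77 in M1.

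Ldha had 6, 2, 8 and 15 counts in WT M2 against 4, 0, 2 and 4 in WT M0, and the groups overlapped. Its log2 fold change of 1.7 ± 0.64 passed narrowly (adjusted p = 0.0451 from edgeR). It did not pass with total-count scaling (adjusted p = 0.0553), with DESeq2 (adjusted p = 0.0583), or without any one of 6 of the 8 libraries (WT M0 replicates 1 to 3 and WT M2 replicates 1, 3 and 4), and was 1.05 without WT M2 replicate 4. In Ltb4r2-/- the change of Ldha was -0.26 ± 0.61 (adjusted p = 0.790 from edgeR). Pgk1 changed by 2.15 ± 0.83 in WT (adjusted p = 0.0501), which passed without WT M2 replicate 3 (2.46, adjusted p = 0.0257). In Ltb4r2-/- M2, Pkm had 28, 16, 22 and 27 counts and Slc16a3 27, 28, 35 and 34. Aldoa, Pkm and Slc16a3 rose in that group, by 1.52 ± 0.34 (adjusted p = 5.79e-04 from edgeR), 1.05 ± 0.29 (adjusted p = 0.00477) and 1.00 ± 0.31 (adjusted p = 0.0104). In WT their values were 0.39 ± 0.34, 0.43 ± 0.30 and 0.38 ± 0.30, with adjusted p of 0.452, 0.312 and 0.400. The log2 fold change of Hk3 in Ltb4r2-/- M2 was 2.10 ± 1.07 (adjusted p = 0.136 from edgeR), and 4.20 (adjusted p = 0.0320) without Ltb4r2-/- M0 replicate 2, again against libraries all at 0. Gapdh and Tpi1 did not pass in either genotype, with Tpi1 at -0.75 ± 0.33 in Ltb4r2-/- (adjusted p = 0.0844).

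Set directly against M2, the M1 libraries of WT had 8 higher genes and 1 lower, as against 26.2% and 26.3% of all genes. In Ltb4r2-/- they had 7 higher and 1 lower, as against 26.4% and 26.5%. As against M0, Hk3, Pgk1 and Ldha reached the count minimum in few M2 libraries (0, 1 and 1 of 8) and so were tested because they were high in M1. With total-count scaling the numbers were 5 and 1 in WT (15.7% and 43.4% of all genes) and 7 and 1 in Ltb4r2-/- (16.3% and 44.1%). Pfkp had the lower values, with a log2 fold change of -1.24 ± 0.15 in WT (adjusted p = 1.41e-08 from edgeR) and -1.45 ± 0.15 in Ltb4r2-/- (adjusted p = 5.39e-10). Pkm was higher in M1 by 2.27 ± 0.26 in WT (adjusted p = 3.67e-09 from edgeR) and by 1.89 ± 0.25 in Ltb4r2-/- (adjusted p = 9.49e-08). The lactate exporter did not pass. Slc16a3 differed by 0.53 ± 0.29 in WT (adjusted p = 0.123 from edgeR) and by 0.15 ± 0.30 in Ltb4r2-/- (adjusted p = 0.686), with 95% intervals of -0.06 to 1.12 and -0.45 to 0.75. With total counts both turned slightly negative, at -0.04 and -0.40. In WT, Tpi1 (1.09 ± 0.31), Pgk1 (1.78 ± 0.60) and Ldha (1.54 ± 0.51) passed with all libraries but not without WT M1 replicate 2, where they were 0.72, 1.48 and 1.19. Pgk1 also failed without WT M2 replicate 3 (1.44).

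For none of the 10 genes did a difference between the genotypes pass the test. In M0 6 of the 10 had enough counts to be tested, in M1 10 and in M2 7, and 0 passed by edgeR, with 0 at an unadjusted p under 0.05 and 0 by DESeq2. Of all genes, 0.131% differed in M0, 0.0509% in M1 and 0.190% in M2. An unadjusted p under 0.05 from edgeR was reached by 135 (M0), 147 (M1) and 63 (M2) genes. The genes tested numbered 2283, 1963 and 2110. With so few members tested, 0 at this level does not set them apart from all genes. In M1, Pkm had a log2 fold change from WT to Ltb4r2-/- of -0.06 (95% interval -0.52 to 0.39), Ldha of -0.10 (-0.85 to 0.65), Hk3 of -0.29 (-1.08 to 0.50) and Gapdh of -0.47 (-1.08 to 0.13). The intervals of Unc5a in M1 (-0.21 to 0.21) and Pfkp in M0 (-0.26 to 0.23) were the narrowest of those tested. The intervals of the genes with few counts were wide, and those of Ldha and Hk3 in M1 spanned more than a log2 unit. In M0, Slc16a3 was at -0.60 (-1.29 to 0.09, adjusted p = 0.872 from edgeR).

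**Figure D4:**
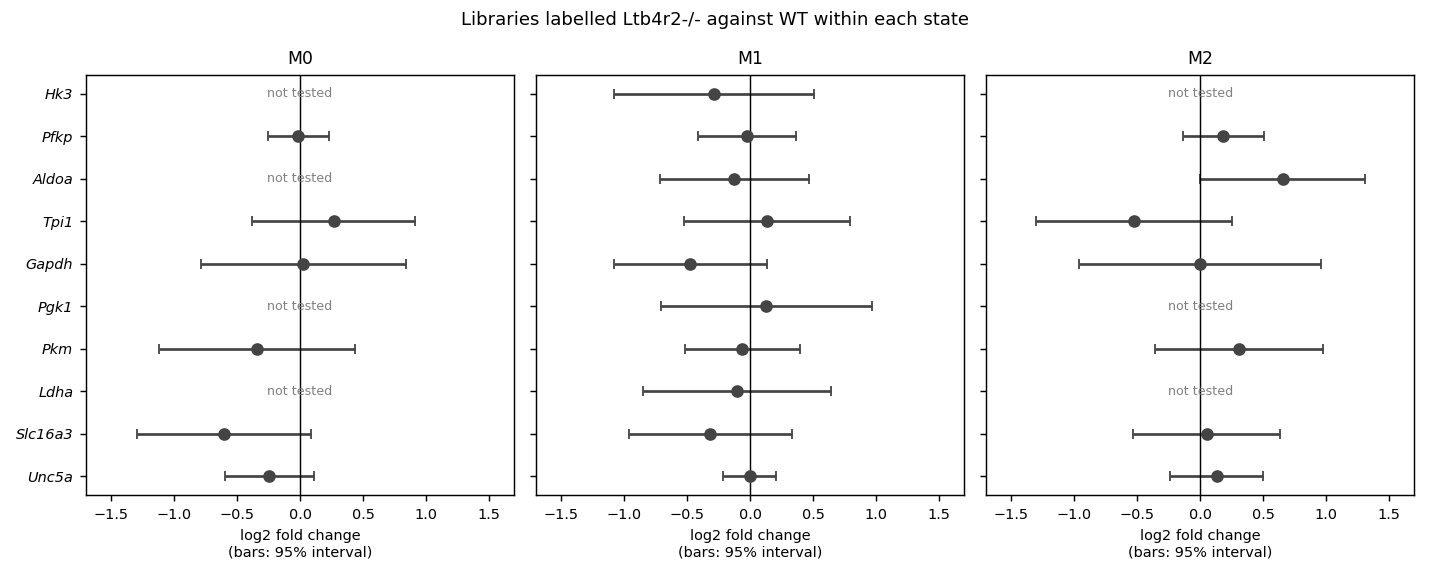
Log2 fold change from WT to the libraries labelled Ltb4r2-/- (horizontal axis) in M0, M1 and M2, with points for the estimate and bars for the 95% interval, and with "not tested" where a gene had too few counts. Every interval holds 0, and that of Aldoa in M2, with its lower end at 0.00, comes nearest to leaving it out.

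Aldoa in M2 was the member whose genotypes came nearest to a difference. It had 13, 13, 18 and 13 counts in WT M2 and 26, 18, 22 and 25 in Ltb4r2-/- M2, and the 2 groups did not overlap, as was so in this direction for 1.04% of all genes. The log2 fold change was 0.65 ± 0.31 (unadjusted p = 0.0501, adjusted p = 0.999 from edgeR). The interaction of genotype with polarization was tested for the 10 genes, and 0 passed for M1 or for M2 by edgeR or DESeq2, as against 0.0328% of all genes in each. At an unadjusted p under 0.05 there were 0 for M1 and 2 for M2, as against 141 and 144 of all 3047 genes. Aldoa responded to IL-4 by 1.13 ± 0.48 more in Ltb4r2-/- than in WT (unadjusted p = 0.0253, adjusted p = 1.00 from edgeR). Ldha responded by -1.96 ± 0.88 (unadjusted p = 0.0333, adjusted p = 1.00). Neither passed the correction.

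Other genes of glucose metabolism were counted by list. Of 22 other glycolytic enzymes 5 had enough counts, and 3 rose from M0 to M1 in WT and 2 in Ltb4r2-/-, whereas 0 and 1 fell (edgeR). Among all genes 26.9% and 27.1% rose and 24.3% and 25.7% fell, so with 5 genes these counts, like those of the lists that follow, are descriptions of single genes and not results about a list. Gpi1, the isomerase between the first sugar phosphates, changed by 2.13 ± 0.61 (adjusted p = 0.00382 from edgeR), Hk1 by 1.73 ± 0.58 and Pfkm, the muscle-type phosphofructokinase, by 0.92 ± 0.30 in WT. Hk1 reached the count minimum in 1 of 8 M0, 5 of 8 M1 and 1 of 8 M2 libraries, so that it was tested through M1, where it was high. Gpi1 reached it in 1 of 8 M0, 4 of 8 M1 and 3 of 8 M2 libraries, so it was tested mostly through M1 and M2. In Ltb4r2-/- the rise of Gpi1 did not pass (1.30, adjusted p = 0.0661 from edgeR). With total counts Pfkm in WT no longer passed (0.31, adjusted p = 0.371), nor did Hk1 (1.13, adjusted p = 0.0909), whereas Pfkm in Ltb4r2-/- did (1.5 with TMM, 0.89 with total counts, adjusted p = 0.0109). Exons of Gpi1 share 741 bp with Gm26762 on the opposite strand, those of Hk1 157 bp with Hk1os, those of Gapdhs 162 bp with Tmem147os and those of Pfkm 18 bp with Senp1. Gapdhs, the sperm form of Gapdh, was at -0.36 ± 0.16 in WT (adjusted p = 0.0686) and fell in Ltb4r2-/- (-0.79 ± 0.17). With total counts 1 of these 5 rose and 2 fell in each genotype. The median over the 5 was 0.92 in WT, beside -0.02 for all genes.

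Of 19 genes that set the flow through the chain 4 were tested, and 2 rose and 1 fell in each genotype. With total counts 1 rose and 1 fell in WT, and 1 rose and 2 fell in Ltb4r2-/-. Pfkfb3, which makes the activator of phosphofructokinase, rose by 3.79 ± 0.74 in WT (adjusted p = 6.96e-05 from edgeR) and by 5.0 ± 0.86 in Ltb4r2-/-, from 0 to 4 counts per M0 library to 10 to 23 in M1. Pfkfb3 reached the count minimum in 0 of 8 M0, 6 of 8 M1 and 0 of 8 M2 libraries, so it was tested because it was high in M1. Pfkfb2, another such enzyme, rose by 0.93 ± 0.23 and 0.58 ± 0.23 with TMM and did not pass with total counts (0.31 and -0.03). Pdha1, a subunit of the pyruvate dehydrogenase that passes pyruvate on to mitochondria, fell, with 69 to 81 counts in WT M0 and 11 to 21 in WT M1 (-1.74 ± 0.23, adjusted p = 1.26e-07, and -2.59 ± 0.25 in Ltb4r2-/-). Exons of Pdha1 share 603 bp with Map3k15 on the opposite strand, those of Pfkfb2 154 bp with Yod1 and those of Txnip 606 bp with Gm15441, whereas Pfkfb3 has no such neighbour in the annotation. Txnip, an inhibitor of glucose uptake, did not pass with TMM (0.19 ± 0.63 in WT and -1.05 ± 0.58 in Ltb4r2-/-, adjusted p = 0.828 and 0.129), but was lower in Ltb4r2-/- with total counts (-1.66, adjusted p = 0.0143).

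Of 14 carriers of glucose, lactate and pyruvate other than Slc16a3, 2 had enough counts, and 0 rose. Slc16a6, a monocarboxylate carrier family member, changed by -1.32 ± 0.19 in WT (adjusted p = 6.88e-07 from edgeR), and its exons share 1052 bp with Amz2. Slc16a11 was at -0.19 ± 0.43 in WT and at -1.37 ± 0.44 in Ltb4r2-/- (adjusted p = 0.742 and 0.00859), and since it reached the count minimum in 8 of 8 M0 but 1 of 8 M1 and 2 of 8 M2 libraries, it was tested because it was high in M0. In the pentose phosphate pathway, which branches from glycolysis and makes NADPH, 2 of 4 tested rose in each genotype and 0 fell, beside the 26.9% and 27.1% of all genes that rose. The 2 were its oxidative enzymes G6pdx (1.60 ± 0.41 in WT, adjusted p = 0.00144 from edgeR) and Pgd (1.74 ± 0.47, adjusted p = 0.00222), whereas Rpe and Tkt were at 0.24 ± 0.18 and 0.34 ± 0.67. Pgd reached the count minimum in 1 of 8 M0 and 7 of 8 M1 libraries, and exons of G6pdx share 418 bp with Ikbkg on the opposite strand and those of Rpe 558 bp with Kansl1l. Of 23 genes of HIF-1 and its targets 3 were tested, and 2 rose in each genotype. Hif1a itself had 2 to 5 counts per library in WT M0 and 36 to 48 in WT M1 (4.01 ± 0.53, adjusted p = 9.91e-08 from edgeR). Vegfa, a growth factor for vessels, passed in WT with TMM (1.64 ± 0.69, adjusted p = 0.0469) and not with total counts (adjusted p = 0.207). Car9, a carbonic anhydrase, was at 0.26 ± 0.39. Hif1a and Vegfa reached the count minimum in 1 of 8 M0 libraries each and in 8 and 6 of 8 M1 libraries, and exons of Hif1a share 330 bp with Gm15283 on the opposite strand. None of 16 genes of glucose synthesis and glycogen had enough counts to be tested.

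Of 20 reference genes outside glycolysis 10 were tested, and 4 rose and 2 fell in WT M1 and 2 rose and 2 fell in Ltb4r2-/- M1, beside the same shares of all genes. With total counts 2 rose and 2 fell in WT, and 2 rose and 3 fell in Ltb4r2-/-. Single values in WT had B2m, the light chain of MHC class I, at 3.04 ± 0.27 (adjusted p = 1.79e-11 from edgeR) and Actb at 1.49 ± 0.20. Gusb, a lysosomal enzyme, was at -2.66 ± 0.56 and Eef1a1, a translation factor, at -1.15 ± 0.28. As a check of the labelled states, Nos2, which makes nitric oxide, had 59 to 119 counts in WT M1 libraries and 44 to 88 in Ltb4r2-/- M1, and 0 in M0 and M2. Of 11 genes of the M1 state 6 were tested, each of which reached the count minimum in 8 of 8 M1 libraries and in none of M0 or M2, so that their rise was a condition for being tested. The 5 tested of 10 genes of the M2 state likewise reached it in 6 to 8 of 8 M2 libraries and in at most 1 of M0 and none of M1.

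Across the 24 libraries the members followed one another to different degrees. The correlation of log2 CPM (Pearson, a description, since libraries share their state) was 0.97 between Pkm and Unc5a and 0.80 between Pkm and Ldha. It was 0.47 between Ldha and Slc16a3 and -0.81 between Pfkp and Tpi1. The genes nearest to Ldha were Cebpb, a transcription factor of myeloid cells (0.88), Flii (0.87) and Tnfrsf1b, a TNF receptor (0.87). Those nearest to Slc16a3 were Tctex1d4 (0.76), Oraov1 (0.76) and Clic4 (0.75). Pfkp was nearest to Dnah11 (0.97), Foxp3 (0.97) and Gm20319 (0.96), which each overlap another gene on the opposite strand (Cdca7l, Ccdc22 and Il1rap). Unc5a was nearest to C920021L13Rik, Mir6381 and Bysl (each 0.99), which overlap BC028528, Gbp2 and Ccnd3 in the same way.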

How the data were processed

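Polyadenylated RNA of 24 BMDM samples was sequenced, 4 for each of 2 genotypes in 3 states. The deposited table holds raw counts per gene: after trimming (cutadapt), the authors used STAR for alignment to mm10 and HTSeq for counting, and tool versions and the strand setting are not given in the sources used here. A second table of the authors holds log2 values, which were checked to be log2(count/size factor + 1) and not used further. Samples were grouped by their labels. The sample titles say only that replicates are biological. The column headers of the counts carry a number after the genotype that recurs in the 3 states, without saying that it marks 1 animal. The main tests did not pair by this number and treated the libraries as independent. Their p-values set a difference against the spread between libraries of a group, and intervals on counts cover counting error only.

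Totals of 427825 to 729580 counts per library are small, so genes under about 10 counts carry wide errors. Counts were tested with edgeR 4.0.16 (limma 3.58.1, R 4.3.3): TMM factors, filterByExpr (minimum count 10, minimum total 15), the quasi-likelihood test and Benjamini-Hochberg adjustment over all genes tested at 0.05. Polarization and interactions came from 1 fit of all 24 libraries (3047 genes), and genotypes from the 8 libraries of a state (2283, 1963 and 2110 genes in M0, M1 and M2). Standard errors were taken from the fold change and its F value. Ratios of genes within a library used log2 of counts plus 0.5 and an exact permutation test over 70 arrangements of 4 against 4. The scripts were tested on simulated data. Alternatives were total-count scaling, RLE factors, DESeq2 1.42.0, a filter at a mean of 50 counts and none, fits of fewer or more libraries, other priors, the replicate number as a block, and leaving out each library.

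Beside the 10 genes, the text names up to 4 genes of each of 9 lists with the smallest p in M1 against M0 of WT, up to 2 more that passed in the opposite direction, opposite-strand neighbours, and the 3 genes nearest to Ldha, Slc16a3, Pfkp and Unc5a by correlation of log2 CPM (prior count 2). AV051173 was named after its values were seen. The members and lists were chosen with earlier results of these data known.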

Additional observations from a re-analysis of the deposited data

Results flagged for a closer look

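Of 60 sets of 4 libraries (10 genes in 6 groups), 4 had 1 library far from the other 3 by Dixon's criterion at its 95% value. Chance alone gives this in about 1 of 20 sets of normally distributed values, which is close to 4 of 60. Hk3 was at 70.7 CPM in WT M1 replicate 4, where the other WT M1 libraries had 36.9 to 39.0 CPM. Hk3 was at 3.06 CPM, from 2 counts, in Ltb4r2-/- M0 replicate 2, and at 0 in the others of that group, a set that the criterion flags whatever the value. Gapdh was at 62.3 CPM in WT M1 replicate 3 against 124 to 136 CPM in the others. Unc5a was at 1626 CPM in WT M1 replicate 2 against 1316 to 1368 CPM.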

How the results depend on the processing

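The number of members called between states, both directions together, stayed within 1.5 times of its value under total-count scaling, RLE factors and fits of the compared libraries alone. With a mean of at least 50 counts only 2 members were left to test, and 2 passed in M1 against M0 in either genotype, in M2 against M0 of Ltb4r2-/- and in M1 against M2 of either genotype. Of all 959 genes left, 670 (WT) and 677 (Ltb4r2-/-) passed in M1 against M0, 546 in M2 against M0 of Ltb4r2-/-, and 697 and 708 in M1 against M2. In M2 against M0 of WT 1 passed without a filter and 1 with DESeq2, as against 634 and 794 of 13709 genes. With single libraries left out 1 to 3 passed there, as against 669 of 3295 to 826 of 3239 genes. Single log2 fold changes turned direction in few cases, none past the threshold: Slc16a3 in M1 against M2 with total counts (-0.035 in WT, -0.40 in Ltb4r2-/-) and without a filter (-0.00341 in Ltb4r2-/-), Aldoa in M1 against M2 of Ltb4r2-/- with total counts (-0.035), Gapdh between genotypes in M2 with DESeq2 (0.00237) and the log2 ratio of Unc5a to Hk3 in M2 against M0 of WT with a prior of 0.1 (-0.28). Without a filter, Tpi1 and Slc16a3 in M1 against M0 of WT no longer passed (adjusted p = 0.0504 and 0.136, edgeR), nor did Tpi1 in Ltb4r2-/- (adjusted p = 0.132). The same held for Slc16a3 in M2 against M0 of Ltb4r2-/- (adjusted p = 0.0639) and Tpi1 in M1 against M2 of WT (0.98, adjusted p = 0.0567). It also held for Pfkp and Ldha in M2 against M0 of WT (adjusted p = 0.297 and 0.151). With single libraries left out, values near 0 changed sign: in M2 against M0 of WT, Hk3 ran from -0.25 to 1.28 and Tpi1 from -0.080 to 0.22, in Ltb4r2-/-, Gapdh from -0.35 to 0.53 and Ldha from -0.66 to 0.066, and Slc16a3 in M1 against M2 of Ltb4r2-/- from -0.15 to 0.34. Between genotypes the ranges were -0.15 to 0.19 for Gapdh in M0, -0.075 to 0.032 for Pfkp in M0, -0.27 to 0.22 for Ldha in M1, -0.12 to 0.015 for Pfkp in M1, -0.11 to 0.39 for Pgk1 in M1, -0.28 to 0.081 for Pkm in M1, -0.050 to 0.47 for Tpi1 in M1, -0.067 to 0.067 for Unc5a in M1, -0.63 to 0.24 for Gapdh in M2 and -0.11 to 0.19 for Slc16a3 in M2. The log2 ratio of Unc5a to Hk3 ran from -0.94 to 0.088 in M1 against M2 of Ltb4r2-/- and from -0.36 to 0.78 in M2 against M0 of WT. The labels do not say that a replicate number marks 1 animal, though the number recurs in the states of a genotype. Pairs of the same number were not taken as paired in the main tests, and a block by number was an alternative. Between states same-numbered libraries correlated at -0.07 to 0.14, with a median of 0.051 against -0.020 for other numbers, and 21 of 24 were positive and 5 over 0.1. A library correlated best with its own number in 28 of 48 comparisons, each with 4 libraries to choose from. This is a hint of pairing, and whether the libraries are paired cannot be told from the sources used here. Between genotypes the range was -0.21 to 0.10 (0 of 12 over 0.1). With the replicate block 10 and 10 members passed in M1 against M0, 2 and 5 in M2 against M0, 9 and 8 in M1 against M2 (WT and Ltb4r2-/-) and 0 between genotypes or for interactions, and Ldha in M2 against M0 of WT was at 1.64 (adjusted p = 0.0783 from edgeR). Of all 3047 genes, 1525 and 1576 passed with the block in M1 against M0, 794 and 962 in M2 against M0, and 1568 and 1590 in M1 against M2. The 18 ratios to Pfkp stay a description, since Pfkp was chosen with its fall known. M1 and M0 libraries did not overlap in any of them. The exact permutation test of 4 against 4 libraries then gives its smallest p (0.0286) for each, and no support is drawn from it. Sign flips of 4 pairs cannot give p under 0.125, and with 1 library left out the smallest p is 0.0571. None of the 18 could therefore pass under the block or with 1 library left out. The cause of the other changes was not tested.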
